A study of Mus musculus with 30 samples.

Results

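CD4 and CD8 T cells were compared by RNA sequencing in mouse blood cells of 2 origins, with origin kept as a block so that each origin served as its own reference. Of the 30 libraries of the series, 10 were of T cells, and all 10 were used: 2 control CD4, 3 control CD8, 2 rEC CD4 and 3 rEC CD8 libraries. They were chosen by their labels alone, with no measured value. The series concerns the conversion of adult endothelium to haematopoietic stem cells, and rEC marks blood cells descended from such converted endothelial cells. The labels give the control cells as wild type and the rEC cells as derived. All T cell libraries are labelled as blood, freshly isolated, and sorted by flow cytometry. The control titles name Cd3 together with Cd4 or Cd8, whereas the rEC titles name T cells with Cd4 or Cd8. For rEC, CD4 replicate 2 and CD8 replicates 2 and 3 are titled Secondary, and replicate 1 of each rEC group carries no such word. The labels used here give no strain, age or sex, and do not say whether the replicates came from separate animals, so the p-values measure the spread between these libraries, which may be partly technical. As known from the study and not from the labels of these libraries, the conversion used the factors Fosb, Gfi1, Runx1 and Spi1, so reads of Runx1 cannot be assigned to the endogenous gene or an introduced copy.

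CD4 and CD8 T cells arise in the thymus from a common precursor that carries both co-receptors. CD4 binds class II and CD8 binds class I major histocompatibility molecules, and the transcription factors ThPOK (Zbtb7b) and Runx3 oppose each other in the choice of lineage. In blood, CD4 cells include helper and regulatory T cells, which act through CD40 ligand, cytokines and the factor Foxp3, and CD8 cells include naive cells and memory cells that hold granzymes, perforin and receptors shared with natural killer (NK) cells.

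The sorted genes matched the labels in every T cell library. Cd4, on chromosome 6 from 124864692 to 124888221 (mm10), measured 364 and 352 FPKM (fragments scaled by transcript length and by the number of fragments in the library) in control CD4 and 242 and 309 FPKM in rEC CD4, and was at or below 0.272 FPKM in all 6 CD8 libraries. Cd8a, on chromosome 6 from 71373427 to 71379173, measured 395, 363 and 373 FPKM in control CD8 and 397, 426 and 395 FPKM in rEC CD8, against 2.87 and 1.57 FPKM in control CD4 and 0.417 and 0.385 FPKM in rEC CD4. The CD3 chain genes Cd3d, Cd3e and Cd3g were not called different between CD4 and CD8 cells (adjusted p = 0.634, 0.950 and 0.193, limma), with log2 differences of -0.05, 0.01 and 0.17. Cd3d and Cd3e took the opposite sign under 1 and 4 other settings, listed with the alternatives, and were called in none. Cd247, which encodes the CD3 zeta chain, was higher in CD4 cells by 0.78 ± 0.10 (SE) on the log2 scale (adjusted p = 0.00019).

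The 10 libraries had 10571 to 11050 genes at 1 FPKM or more. Read totals were not used here, since FPKM carries none. Relative depth, read from the size of the lowest FPKM steps, ran from 0.753 to 1.21 times that of control CD4 replicate 2. The summed FPKM ran from 540040 to 727885, and 1 small gene model, Gm25500, took 24.0% of it in control CD4 replicate 1. The 3 control CD8 libraries stood apart from the other 7 in genes of other blood cells. The 16 B cell markers summed to between 979.8 and 2396 FPKM in control CD8, against 29.6 to 273 FPKM in the other 7 T cell libraries and 25900 to 32805 FPKM in the control B cell libraries. None of those 16 markers was at 0 throughout a T cell group. The 11 monocyte and macrophage markers summed to between 231 and 975 FPKM in control CD8, 145 to 200 FPKM in the CD4 libraries and 122 to 128 FPKM in rEC CD8, with Cd14 and Fcgr1 at 0 in control CD4 and Cd14 at 0 in rEC CD8.

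CD4 and CD8 cells differed in many genes, and for the genes with sizeable differences the direction was largely shared by the origins. Of 11594 genes tested, 2797 (24.1%) were called at an adjusted p under 0.05 in the comparison with origin as block: 1567 (13.5%) were higher in CD4 and 1230 (10.6%) were higher in CD8 cells. Within the control, 2572 genes (22.2%) were called, 1452 (12.5%) higher in CD4 and 1120 (9.66%) higher in CD8. Within rEC, 1251 genes (10.8%) were called, 653 (5.63%) higher in CD4 and 598 (5.16%) higher in CD8. The median log2 difference over all genes was 0.03 with both origins, 0.05 in the control and 0.01 in rEC. The median standard error was 0.147 in each origin, since all groups shared 1 estimate of the spread.

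Called in each origin with the same sign were 913 genes (7.87% of those tested), 505 (4.36%) higher in CD4 and 408 (3.52%) higher in CD8. They made up 35.5% of the control calls and 73.0% of the rEC calls. Of the 758 genes called in the control with a log2 difference of at least 1 in size, 641 had the same sign in rEC and 428 were also called there. Of the 497 such genes in rEC, 491 had the same sign in the control and 426 were also called there. The CD4 and CD8 libraries did not overlap in the control for 56.1% of all genes and in rEC for 37.8%, and 2280 genes (19.7%) were called with both origins and did not overlap in either, 1284 (11.1%) higher in CD4 and 996 (8.59%) higher in CD8. Counts of calls depended on single libraries. Without control CD4 replicate 1 the control count was 1013, without control CD8 replicate 2 it was 1532, and the count of genes called in each origin was 582 without control CD4 replicate 1. Without rEC CD4 replicate 1, rEC CD4 replicate 2 or rEC CD8 replicate 2 the rEC count was 635, 581 or 830, and the count called in each origin was 534 and 477 without the 2 rEC CD4 libraries in turn. With the title word Secondary as a block the rEC count was 689, and in a fit of the rEC libraries alone it was 632. In a fit over all 29 grouped libraries of the table, 947 genes were called with both origins, 527 in the control, 281 in rEC and 200 in each origin. In that fit the calls of Cd247, Gata3, Igfbp4, Itgb1, S100a4, Ptpn22, Sla2, Oas2, Mki67, Rrm2, Ccne1, Hba-a1, Alas2, Cish, Psmb8 and Erap1 with both origins ended (adjusted p from 0.072 for Mki67 to 0.750 for Cd247), as did that of Klrd1 in rEC (0.164).

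The genes called in each origin with a log2 difference of at least 1 in both numbered 366, of which 189 were higher in CD4 and 177 higher in CD8. For 350 of these 366, the control and rEC estimates lay within 1 log2 unit of each other, and the median distance was 0.273. The median size of the difference was 1.68 in the control and 1.65 in rEC, and 182 of the 366 were smaller in rEC. These values describe genes picked for being called in each origin. Across all 11594 genes, the log2 differences in the 2 origins had a Pearson r of 0.661. Without 524 genes rich in B or myeloid cells, defined further below, r was 0.776 over 11070 genes. That definition was made after the data had been seen. It uses the rEC T cell level, so the rise in r cannot be separated from that choice. The 2 origins share no T cell library, and genes are not independent replicates, so r is given as a description.

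**Figure D1:**
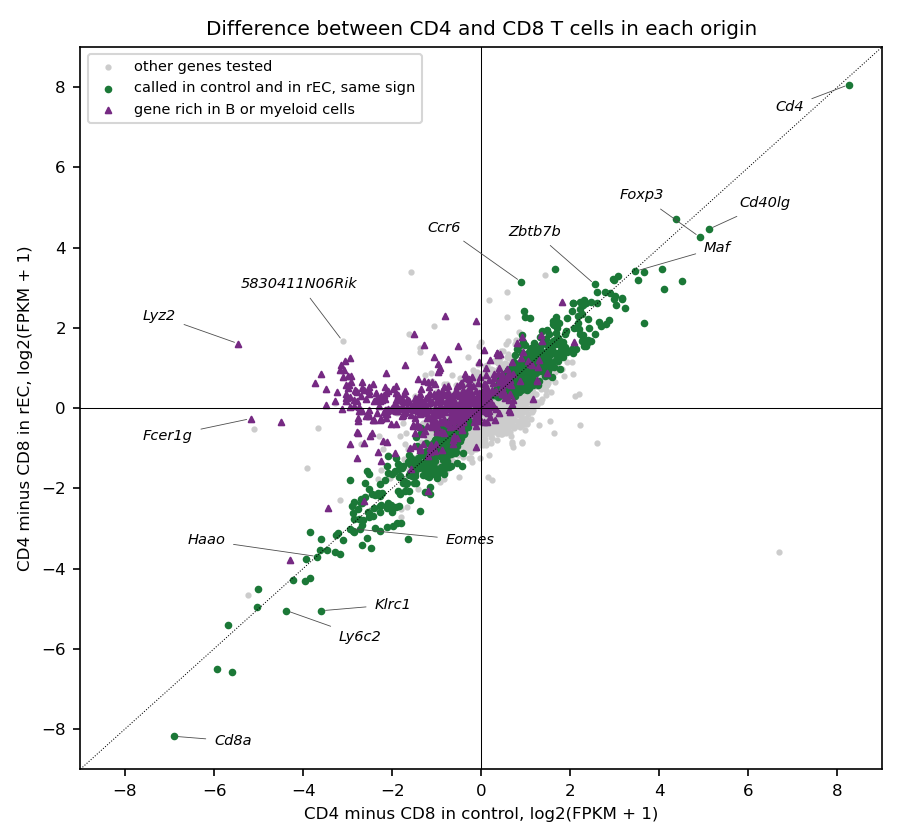
Each point is 1 of the 11594 genes tested; the x axis gives the CD4 minus CD8 difference in control T cells and the y axis that in rEC T cells, both in log2(FPKM + 1), with the dotted line marking equal values. Genes called in both origins with the same sign (green, 913 in all) lie along the line. Those also rich in B or myeloid cells are drawn as purple triangles. Many of the genes rich in B or myeloid cells (purple, 524) lie to the left near 0 on the y axis. Their definition limits their rEC T cell levels. The lone point at the lower right is the gene model Gm38670. It is listed at 10501 FPKM in control CD4 replicate 1 and at 0 in the other 4 control libraries.

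Among the 16 lineage regulators examined, Zbtb7b stood highest on the CD4 side and Runx3 lowest on the CD8 side, in control and rEC alike. With both origins, 7 of the 16 were higher in CD4 and 2 were higher in CD8, against 13.5% and 10.6% of all genes. The median log2 difference was 0.36. This and the other gene lists were chosen with earlier results of these data known. Zbtb7b, which encodes the CD4 lineage factor ThPOK (chromosome 3, 89377644 to 89394776), measured 57.7 and 52.3 FPKM in control CD4 and 44.1 and 55.7 FPKM in rEC CD4, against 10.0, 10.4 and 5.98 FPKM in control CD8 and 5.91, 5.32 and 3.86 FPKM in rEC CD8. The CD4 and CD8 libraries did not overlap in either origin. The log2 difference was 2.82 ± 0.17 (SE) with both origins (adjusted p = 1.23e-06, limma), 2.55 in the control and 3.08 in rEC.

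Runx3, which encodes the factor that silences Cd4 in the CD8 lineage (chromosome 4, 135120652 to 135177990), showed the reverse order at a smaller size. It measured 30.1 and 29.6 FPKM in control CD4, 24.1 and 30.6 FPKM in rEC CD4, 57.7, 44.6 and 47.4 FPKM in control CD8, and 55.2, 69.6 and 52.2 FPKM in rEC CD8. All 6 CD8 libraries lay above all 4 CD4 libraries, and the log2 difference was -0.90 ± 0.12 (SE; adjusted p = 0.000307), with -0.71 in the control and -1.08 in rEC. Gata3, a factor needed for CD4 development and type 2 helper cells, measured 36.5 to 41.2 FPKM in the 4 CD4 libraries and 19.2 to 28.2 FPKM in the 6 CD8 libraries, a log2 difference of 0.77 ± 0.11 (SE; adjusted p = 0.000632). Runx1, another member of the Runx family, and Zfp281, a zinc finger factor, were also higher in CD4 cells in each origin, by 1.02 and 0.81 on the log2 scale with both origins. Tox, needed for CD4 development in the thymus, was higher in CD4 by 0.66 with both origins and was called in neither origin alone. The factors Tcf7, Lef1, Satb1 and Myb and the Runx partner Cbfb were not called, with log2 differences between -0.17 and 0.39.

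**Figure D2:**
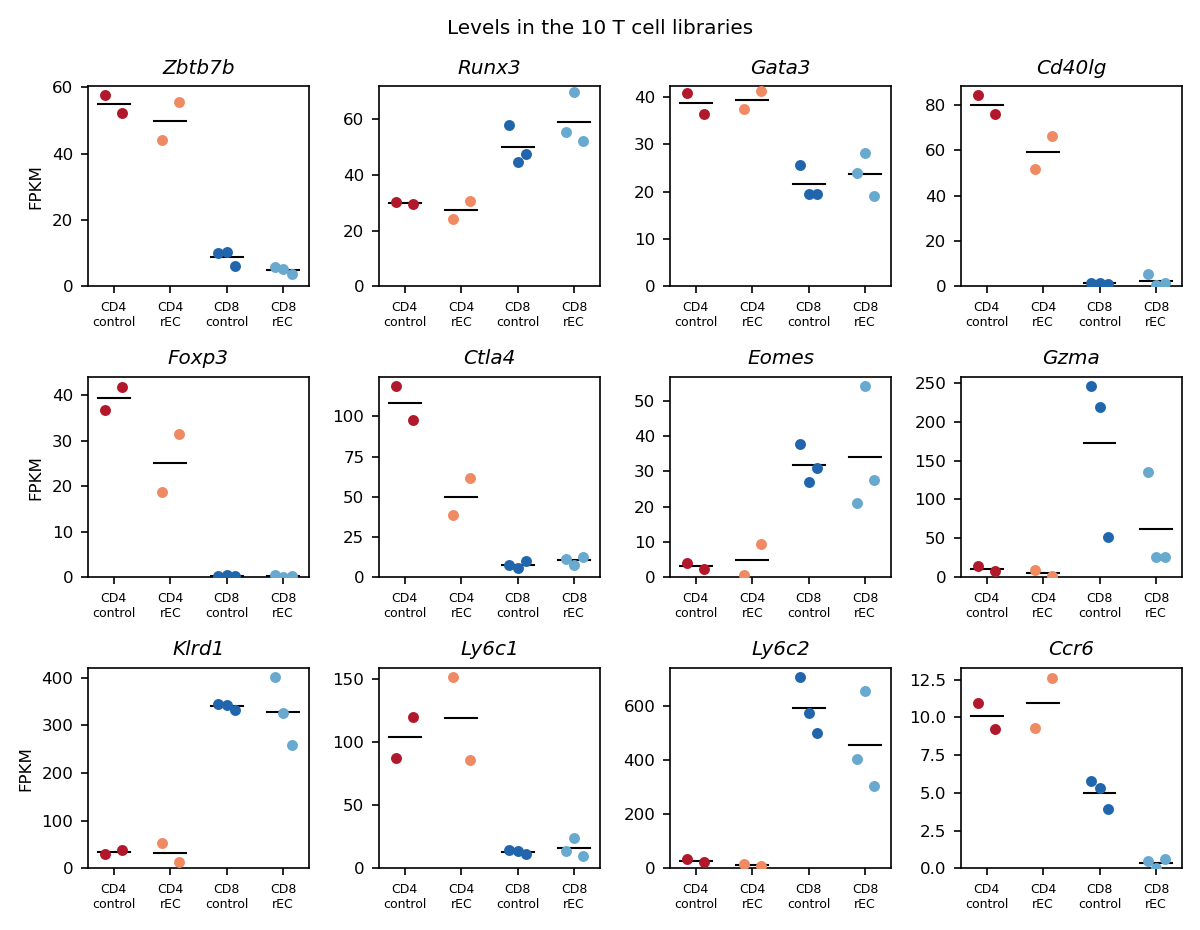
FPKM of 12 genes (y axis, linear, starting at 0) in control CD4, rEC CD4, control CD8 and rEC CD8 T cells (x axis); each point is 1 library and each bar the mean of its group of 2 or 3. Zbtb7b, Cd40lg, Foxp3, Ctla4 and Ly6c1 were higher in the CD4 libraries of both origins and Runx3, Eomes, Klrd1 and Ly6c2 higher in the CD8 libraries, whereas Ccr6 differed more widely in rEC, where CD8 libraries measured at most 0.608 FPKM.

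Helper molecules were higher in CD4 cells of both origins. Of 16 co-stimulation genes, 9 were higher in CD4 and 1, Cd226, was higher in CD8, against 13.5% and 10.6% of all genes. The median log2 difference was 0.87, and all 10 were called in each origin, against 7.87% of all genes. Cd40lg, the ligand through which helper cells activate B cells (chromosome X, 57212143 to 57224042), measured 84.1 and 76.0 FPKM in control CD4, 51.8 and 66.1 FPKM in rEC CD4, 1.57, 1.41 and 1.05 FPKM in control CD8 and 5.21, 0.39 and 1.28 FPKM in rEC CD8. The lowest CD4 library was above every CD8 library in its origin, and the log2 difference was 4.79 ± 0.33 (SE; adjusted p = 2.77e-06). Tnfrsf25, a receptor of the tumour necrosis factor family, was higher in CD4 by 2.49, Tnfrsf4 (OX40) by 1.97 and Tnfsf11 (RANK ligand) by 1.92 on the log2 scale. Icos and Cd28, co-receptors of T cell activation, were higher in CD4 by 1.72 and 1.02, and Cd226, an adhesion receptor of cytotoxic cells, was at -0.75.

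Regulatory T cell genes had the highest median difference of the lists examined. Of 18 genes, 16 passed the filter, and 13 of these were higher in CD4 and none higher in CD8, against 13.5% and 10.6% of all genes. The median log2 difference was 1.96. Itgb8 and Il10 did not pass the filter, and 11 of the 16 were called in each origin. Foxp3, the defining factor of regulatory T cells (chromosome X, 7573644 to 7595245), measured 36.6 and 41.9 FPKM in control CD4 and 18.8 and 31.4 FPKM in rEC CD4, and at most 0.477 FPKM in all 6 CD8 libraries. The log2 difference was 4.58 ± 0.17 (SE; adjusted p = 4.98e-08), with 4.90 in the control and 4.27 in rEC. Ctla4, an inhibitory receptor, measured 119 and 98.0 FPKM in control CD4, 38.5 and 61.6 FPKM in rEC CD4, and 5.51 to 12.8 FPKM in the CD8 libraries.

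The Ctla4 difference was 3.65 in the control and 2.11 in rEC, and the difference between origins was not called (-1.54 ± 0.38, SE; adjusted p = 0.184, limma). For Foxp3 it was -0.64 ± 0.30 (SE; adjusted p = 0.414). Izumo1r (folate receptor 4), Lrrc32 (GARP, which presents latent TGF-beta), Nrp1 (neuropilin 1) and Ikzf2 (Helios) were higher in CD4 by 3.76, 2.96, 2.93 and 2.73 on the log2 scale, and Il2ra (CD25) by 2.54. In these bulk libraries, fewer cells of a type and less RNA per cell cannot be told apart, so a lower level of a regulatory gene does not tell how many regulatory cells a library held.

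Genes of helper subsets were called in both directions. Of 29 such genes, 23 passed the filter, and 12 were higher in CD4 and 4 higher in CD8, against 13.5% and 10.6% of all genes. The median log2 difference was 0.66, and 9 were called in each origin. Maf, a factor of follicular and type 2 helper cells, measured 18.1 to 37.7 FPKM in the CD4 libraries and 1.29 to 2.39 FPKM in the CD8 libraries, a log2 difference of 3.44 ± 0.16 (SE; adjusted p = 2.01e-07). Il1rl1, the interleukin 33 receptor, and Ccr4, a chemokine receptor of type 2 helper and regulatory cells, were higher in CD4 by 3.54 and 3.51. Tbx21, which encodes T-bet, the type 1 factor that also acts in CD8 effector cells, had its CD8 libraries higher.

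Tbx21 measured 11.4 and 11.1 FPKM in control CD4, 5.55 and 7.46 FPKM in rEC CD4, 46.2, 27.7 and 17.8 FPKM in control CD8 and 32.1, 43.1 and 21.1 FPKM in rEC CD8. The groups did not overlap in either origin, and the log2 difference was -1.68 ± 0.27 (SE; adjusted p = 0.00116). The receptors Il12rb2, Il18r1 and Il18rap, which receive type 1 cytokine signals, were also higher in CD8, at -1.10, -0.50 and -1.30. Ifng and Il2 were not called, with log2 differences of 0.07 and 0.38. Il5, Il13, Il17a, Il21, Il23r and Il1r1 did not pass the filter.

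Cytotoxic genes were higher in CD8 cells of both origins. Of 22 genes, 16 were higher in CD8 and 2, Srgn and Gzmc, were higher in CD4, against 10.6% and 13.5% of all genes. The median log2 difference was -2.03, and 13 were called in each origin, against 7.87% of all genes. Eomes, a T-box factor of memory CD8 cells, measured 4.19 and 2.47 FPKM in control CD4, 0.599 and 9.32 FPKM in rEC CD4, 37.7, 27.1 and 30.9 FPKM in control CD8 and 20.9, 54.1 and 27.5 FPKM in rEC CD8. No CD4 library reached the lowest CD8 library, and the log2 difference was -2.97 ± 0.43 (SE; adjusted p = 0.000574). Gzma, which encodes granzyme A, measured 14.2 and 8.10 FPKM in control CD4, 8.84 and 1.45 FPKM in rEC CD4, 245, 219 and 52.1 FPKM in control CD8 and 135, 26.5 and 26.5 FPKM in rEC CD8.

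The Gzma levels of the CD8 libraries varied widely in each origin but did not overlap with the CD4 levels, and the log2 difference was -3.42 ± 0.58 (SE; adjusted p = 0.00158). Gzmm, Xcl1 (a chemokine that attracts cross-presenting dendritic cells), Nkg7 (a granule membrane protein) and Ccl5 (a chemokine stored in memory CD8 cells) were higher in CD8, at -3.58, -3.47, -2.91 and -2.87. For Gzmm in rEC, the adjusted p was 0.00578, 0.0548 without rEC CD4 replicate 1 and 0.0577 with the title word Secondary as a block. Prf1, which encodes perforin, was at -1.99. Srgn, the proteoglycan core of granules, was higher in CD4 by 0.45, and Gzmk, Fasl, Lamp1 and Klrg1 were not called, at -0.64, -0.76, 0.03 and 0.63. NK cell markers moved with this group: their summed level was 75.2 to 323 FPKM in control CD8, 29.7 to 126 FPKM in rEC CD8 and 6.86 to 21.8 FPKM in the CD4 libraries, and their part in the cytotoxic values was not tested. The list is not of NK cells alone, since it summed to 4402 to 4654 FPKM in the control myeloid libraries. Its member Tyrobp, also a myeloid gene, measured 67.8, 153 and 17.7 FPKM in control CD8.

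Most NK receptor genes were higher in CD8 cells. Of 26 genes, 17 were higher in CD8 and none was higher in CD4 with both origins, against 10.6% and 13.5% of all genes. The median log2 difference was -2.17. In the control 22 were higher in CD8 and in rEC 11, where the calls on the CD8 side over all genes also went from 9.66% to 5.16%. The 11 were the 11 called in each origin. The difference between origins was called for none of the 26 (limma, 1482 of all genes with an unadjusted p under 0.05). Klri1 and Klrb1a were at 0 in every library outside control CD8, so they passed the filter through control CD8 alone. Neither could have been called in rEC. In rEC CD8, 4 of the 26 were under 1 FPKM in every library, against 0 in control CD8. Klrd1, which encodes CD94 (chromosome 6, 129591782 to 129598775), measured 30.1 and 38.6 FPKM in control CD4, 53.1 and 12.2 FPKM in rEC CD4, 344, 342 and 333 FPKM in control CD8 and 401, 326 and 258 FPKM in rEC CD8. Klrc1, which encodes the CD94 partner NKG2A, measured 4.41 and 3.06 FPKM in control CD4, 0.376 and 0.335 FPKM in rEC CD4, 66.9, 51.4 and 49.6 FPKM in control CD8 and 43.0, 60.0 and 32.9 FPKM in rEC CD8. Every CD8 library was above every CD4 library for both genes, and the log2 differences were -3.44 ± 0.30 and -4.32 ± 0.27 (SE; adjusted p = 1.75e-05 and 1.35e-06, limma).

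The Ly49 genes of the Klra family, which encode receptors for class I molecules, lay on the same side. Klra7 was at -4.14, Klra3 at -2.75 and Klra6 at -2.70 with both origins. Klra6 measured 15.9, 18.4 and 9.39 FPKM in control CD8 and 0.00428, 5.06 and 2.73 FPKM in rEC CD8, and its rEC difference of -1.50 was not called (adjusted p = 0.147). The Klra genes are near-identical copies that differ between mouse strains, so the authors' counting could have divided reads among them and the value of any single member is uncertain. In the interval of chromosome 6 that spans the listed Klr genes (128609227 to 130386874, mm10), 35 genes were tested. In each origin, 11 of them were called higher in CD8 and 1 higher in CD4, against 3.52% and 4.36% of all genes. The listed genes set the interval, and 23 of the 35 were Klr genes, 11 of them called in each origin. The count thus largely repeats the list. The NK receptor values stand beside the NK cell marker sums given for the cytotoxic genes, and 8 of those 10 markers are also in the receptor list. Ncr1, a defining NK cell gene, measured 20.8, 24.8 and 1.497 FPKM in control CD8 and 1.84, 0 and 0 FPKM in rEC CD8. The part of NK cells in the control values was not tested.

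**Figure D3:**
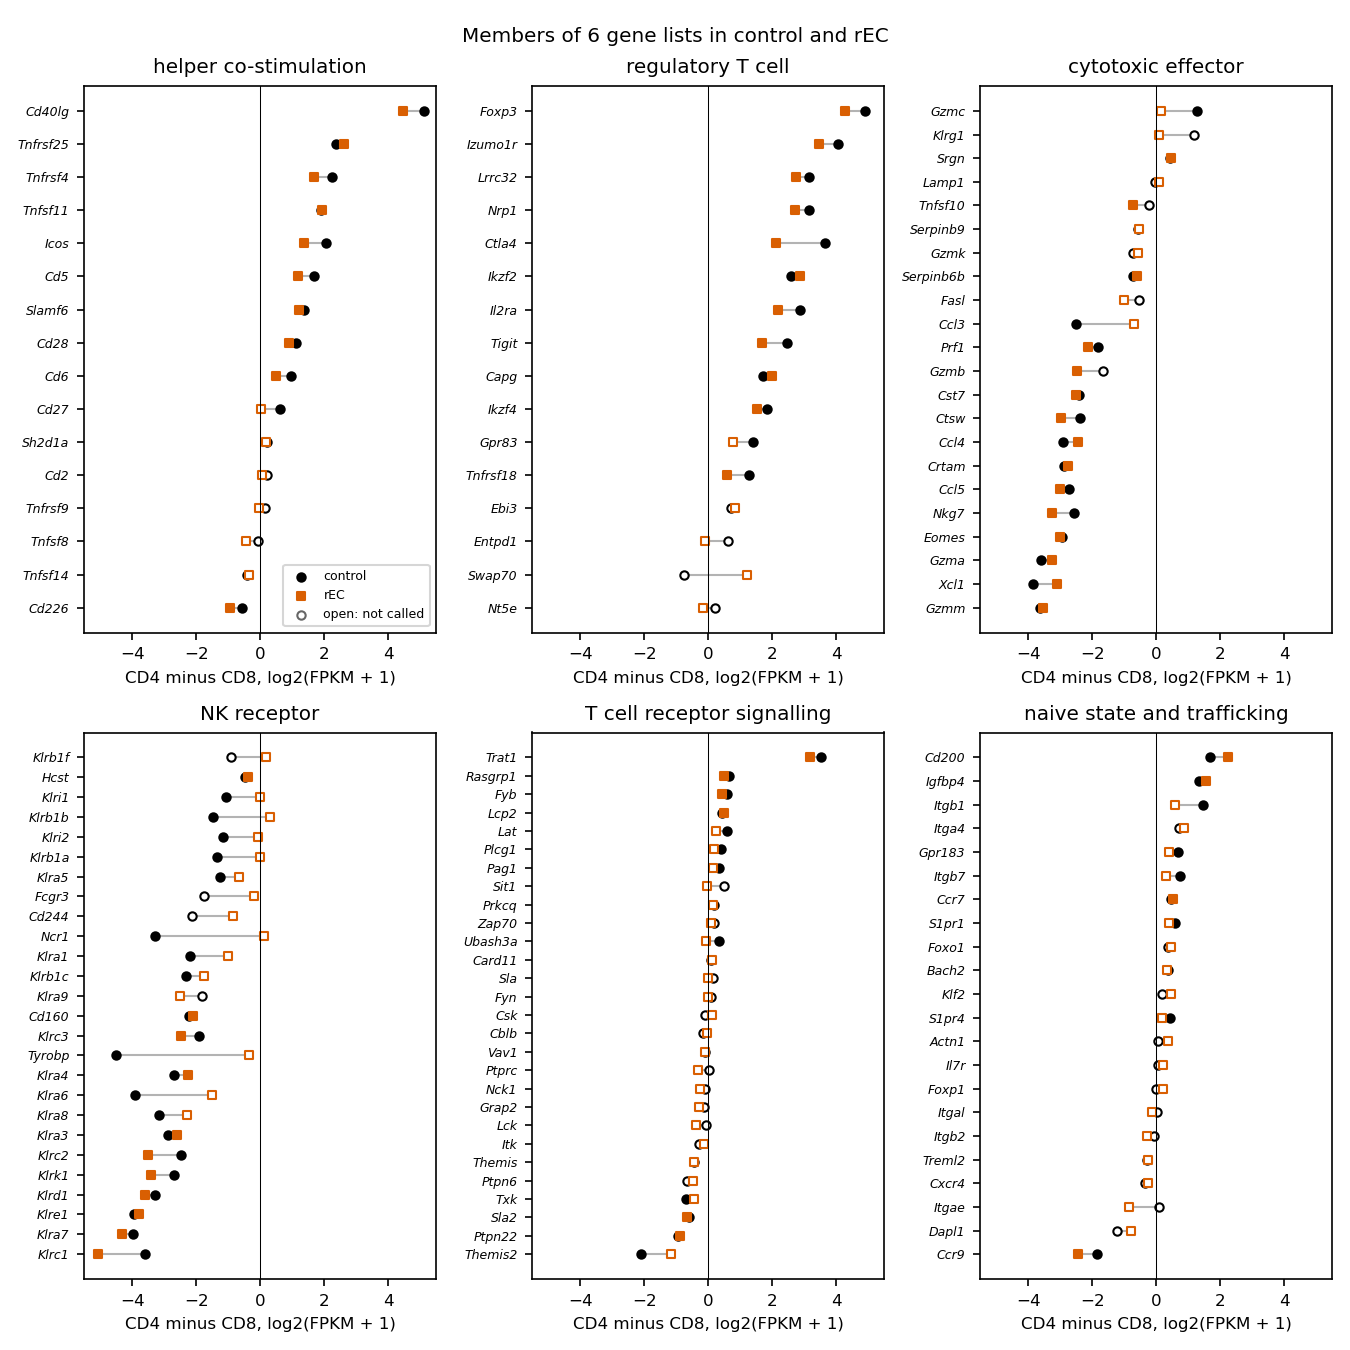
Each row is 1 gene of 6 lists (1 tested member is not drawn), placed on the x axis by its CD4 minus CD8 difference in log2(FPKM + 1) in control (circles) and rEC (orange squares); filled symbols were called at an adjusted p under 0.05 and open ones were not. Helper and regulatory genes lie mostly to the right in both origins and cytotoxic genes mostly to the left. In the NK receptor list, Tyrobp, Ncr1 and Klra6 show wide gaps between the origins. Tyrobp, which encodes a signalling adaptor of NK and myeloid cells and not a receptor, is at -4.50 in the control and -0.35 in rEC.

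Besides the list members above, several genes outside those lists had large differences without overlap in either origin. St8sia6, a sialyltransferase gene on chromosome 2 (13651021 to 13794064), measured 33.6 and 37.0 FPKM in control CD4, 36.5 and 34.6 FPKM in rEC CD4 and 0.201 to 0.880 FPKM in the 6 CD8 libraries. The lineages were far apart in each origin, and the log2 difference was 4.55 ± 0.12 (SE; adjusted p = 4.27e-09), with 4.37 in the control and 4.72 in rEC. Pdlim4, a cytoskeletal adaptor gene, Trat1, which encodes an adaptor at the T cell receptor, and Tiam1, an activator of the GTPase Rac, were higher in CD4 by 3.84, 3.35 and 3.18. Ncmap, Gpm6b, Il9r and Cd200r1, which the rule picked within the control, were called in rEC too, with rEC log2 differences between 2.49 and 2.79. Tspan32, a tetraspanin gene that the rule picked within rEC, was higher in CD4 by 2.84 with both origins.

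On the CD8 side, Adgrg5, an adhesion receptor gene, and Slc6a19, an amino acid transporter gene, were at -5.55 ± 0.27 and -4.998 ± 0.24 (SE; adjusted p = 2.12e-07 and 2.06e-07). Haao, an enzyme gene of tryptophan breakdown on chromosome 17 (83831156 to 83847963), measured 1.79 to 3.27 FPKM in the CD4 libraries and 36.5 to 52.2 FPKM in the CD8 libraries, with -3.68 in the control and -3.70 in rEC. Fcgrt, the neonatal Fc receptor gene, Plac8 and Samd3 were at -4.03, -4.04 and -4.26. Klra23 and Klra13-ps, 2 further Ly49 family names, were at -6.22 and -4.76 under the same uncertainty about copies. Bend4 and the long noncoding RNA Tmevpg1, which neighbours Ifng, were at -3.41 and -3.50. The rule could have named 1817 genes, 62 of them unnamed gene models.

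Promoter sequence was searched for 4 short motifs, the Runx motif TGTGGTT, the T-box motif AGGTGTG, the TCF/LEF motif CTTTGA and the motif AGATAA of Gata factors, on both strands of windows from 250 bases before to 50 after a RefSeq start (GRCm38.p6, the same assembly as mm10). A Runx and a T-box match can share the letters TGTG. The Runx letters were in 17 of 189 windows (8.99%) of the genes higher in CD8 by at least 1 in each origin, in 7 of 176 windows (3.98%) of the corresponding CD4 genes, in 3.95% of windows of all genes tested and in 5.27% of all 32851 windows in the table. The T-box letters were in 5.82%, 9.09%, 4.52% and 5.84% of these same sets, the TCF/LEF letters in 13.2%, 14.2%, 12.1% and 16.003%, and the Gata letters in 7.94%, 7.39%, 6.75% and 11.2%. For all genes called in each origin, whatever their size, the Runx letters were in 27 of 410 windows (6.59%) on the CD8 side and 25 of 529 (4.73%) on the CD4 side. Of the 366 genes, 269 had a promoter entry, windows of the same gene can overlap, and no test was made. A match is a description of letters and not a binding site. The sequences below show where the Runx letters lie in 4 promoters of genes higher in CD8, including Runx3 itself with 2 matches, and in Tspan32, which was higher in CD4; capitals mark TGTGGTT or its reverse complement.
Runx3 (chr4:135120395-135120694, plus strand): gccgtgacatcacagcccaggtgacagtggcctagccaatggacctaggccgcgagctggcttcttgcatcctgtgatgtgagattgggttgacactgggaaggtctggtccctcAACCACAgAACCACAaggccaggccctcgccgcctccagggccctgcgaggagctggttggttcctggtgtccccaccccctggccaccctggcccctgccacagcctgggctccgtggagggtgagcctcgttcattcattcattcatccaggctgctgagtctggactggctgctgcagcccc
Ly6c2 (chr15:75111922-75112221, minus strand): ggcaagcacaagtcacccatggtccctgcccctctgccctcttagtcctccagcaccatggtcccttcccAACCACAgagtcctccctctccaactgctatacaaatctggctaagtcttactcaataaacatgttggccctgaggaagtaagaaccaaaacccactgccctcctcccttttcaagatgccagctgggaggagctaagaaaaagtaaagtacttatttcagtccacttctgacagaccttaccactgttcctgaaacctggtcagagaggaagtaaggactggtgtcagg
Plac8 (chr5:100572156-100572455, minus strand): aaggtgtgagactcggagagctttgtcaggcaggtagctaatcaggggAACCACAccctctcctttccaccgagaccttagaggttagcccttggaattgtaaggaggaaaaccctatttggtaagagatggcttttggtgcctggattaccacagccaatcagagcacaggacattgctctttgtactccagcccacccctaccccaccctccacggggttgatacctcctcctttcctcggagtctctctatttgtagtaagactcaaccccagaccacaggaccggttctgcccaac
Klre1 (chr6:129577963-129578262, plus strand): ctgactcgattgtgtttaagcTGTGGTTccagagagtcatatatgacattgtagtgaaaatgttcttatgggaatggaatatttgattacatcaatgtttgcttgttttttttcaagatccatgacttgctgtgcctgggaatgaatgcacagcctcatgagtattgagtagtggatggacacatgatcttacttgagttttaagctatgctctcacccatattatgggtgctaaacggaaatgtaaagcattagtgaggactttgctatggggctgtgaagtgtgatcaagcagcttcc
Tspan32 (chr7:143004796-143005095, plus strand): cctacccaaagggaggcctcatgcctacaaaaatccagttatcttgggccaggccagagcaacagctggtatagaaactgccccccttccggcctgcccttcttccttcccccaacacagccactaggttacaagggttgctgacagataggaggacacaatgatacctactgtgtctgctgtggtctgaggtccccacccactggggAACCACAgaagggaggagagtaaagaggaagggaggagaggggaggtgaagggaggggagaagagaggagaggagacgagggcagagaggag

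The Ly6c genes, whose products form the Ly6C surface antigen of memory CD8 cells and monocytes, went in opposite directions. Ly6c2, whose promoter is printed above, measured 33.1 and 22.6 FPKM in control CD4, 16.4 and 8.84 FPKM in rEC CD4, 707, 576 and 500.04 FPKM in control CD8 and 405, 657 and 304 FPKM in rEC CD8. Its neighbour Ly6c1 measured 87.5 and 119.6 FPKM in control CD4, 151 and 85.9 FPKM in rEC CD4, 14.2, 13.5 and 11.4 FPKM in control CD8 and 13.9, 24.0 and 9.65 FPKM in rEC CD8. The lineages did not overlap for either gene, and the log2 differences were -4.71 ± 0.24 for Ly6c2 and 2.87 ± 0.22 for Ly6c1 (SE; adjusted p = 3.87e-07 and 6e-06). The 2 genes are close copies, so reads shared between them make each level uncertain.

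Of the 32 memory and activation genes, 7 were higher in CD4 and 6 higher in CD8, against 13.5% and 10.6% of all genes. The median was 0.08, and 8 were called in each origin, against 7.87% of all genes. S100a4, a calcium-binding protein of effector memory cells, was higher in CD4 by 1.999, and Il2rb, the interleukin 2 and 15 receptor chain, and Cxcr6, a chemokine receptor of effector cells, were at -1.48 and -1.16. Cd44 was not called, at 0.09. Of 23 genes of the naive state and trafficking, 10 were higher in CD4 and 2 higher in CD8, against the same shares of all genes. The median was 0.31, and 4 were called in each origin. Ccr9, a receptor for homing to the gut, was at -2.14 and Ccr7, a receptor for homing to lymph nodes, at 0.51, both called in each origin. Igfbp4 was higher in CD4 by 1.45, Cd200 by 1.98 and Itgb1 by 1.02, the last called in the control and not in rEC. Il7r, the interleukin 7 receptor gene, was not called, at 0.14.

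Signalling genes were called in both directions and at a higher share than all genes (24.1%), but few called differences reached 1 in size. Of 28 T cell receptor signalling genes, 7 were higher in CD4 and 6 higher in CD8, against 13.5% and 10.6% of all genes. The median was 0.02, and 6 were called in each origin, against 7.87% of all genes. Apart from Trat1, these were Rasgrp1, Fyb and Lcp2, which carry signal from the receptor and were higher in CD4 by 0.57, 0.51 and 0.47, and Ptpn22 and Sla2, which damp it and were at -0.91 and -0.62. Themis2 was at -1.63 with both origins, called in the control (-2.10) and not in rEC (-1.16, adjusted p = 0.0627). Lck and Zap70 were not called, at -0.21 and 0.14. Of 25 cytokine and survival genes, 8 were higher in CD4 and 6 higher in CD8, against the same 13.5% and 10.6% of all genes. The median was 0.01, and 7 were called in each origin. Socs2 was higher in CD4 by 2.24 and Stat5b by 0.70, and Bcl2, a survival gene, was at -0.63, all called in each origin. Cish (0.87) and Ifngr2 (0.71) were called with both origins and in neither origin alone, and the Cish call ended without any of 7 single libraries, with adjusted p between 0.0521 and 0.121. The Ifngr2 call ended without control CD4 replicate 2 or rEC CD4 replicate 1, at adjusted p = 0.0714 and 0.0595.

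Class I presentation genes were called at a share near that of all genes (24.1%): of 16, 1 (Pdia3) was higher in CD4 and 2 (Psmb8 and Erap1) higher in CD8, with a median of -0.02 and none called in each origin. The log2 differences were 0.52, -0.25 and -0.26, and the Psmb8 call ended without control CD4 replicate 2 or rEC CD4 replicate 1 (adjusted p = 0.067 and 0.063). The Erap1 call ended without any of 8 single libraries, with adjusted p from 0.0504 to 0.124. Of 30 interferon response genes, 29 passed the filter, and 11 were higher in CD4 and 3 higher in CD8, against 13.5% and 10.6% of all genes. The median was 0.18. Oas2, a sensor of double-stranded RNA, and Igtp, an interferon-induced GTPase, were called in each origin, at 1.15 and 0.63, while Mx1 was at -1.38, called in rEC alone. Isg20 was at 0.81 and was not called without rEC CD4 replicate 2 (adjusted p = 0.0509). Of 30 cell cycle genes, 26 passed the filter, and 6 were higher in CD4 and 2 higher in CD8, with a median of 0.09. The share called was not far above that of all genes (24.1%), and the share higher in CD8 was below that of all genes (10.6%). The genes below are therefore described singly. Mki67, the proliferation antigen, measured 6.63 and 5.25 FPKM in control CD4, 3.04 and 2.77 FPKM in rEC CD4, 1.97, 1.40 and 1.83 FPKM in control CD8 and 1.10, 0.768 and 0.734 FPKM in rEC CD8, a log2 difference of 1.21 ± 0.13 (SE; adjusted p = 6.92e-05). The CD4 libraries were above the CD8 libraries in each origin, and Rrm2 (1.13), a nucleotide reductase gene, was called alike. Ccne1, the cyclin of entry into DNA synthesis, went the other way (-0.94) and was called in each origin, at -0.43 in the control and -1.45 in rEC, as was Cdt1 (-0.63), a replication licensing gene, whereas the 6 Mcm replication genes were not called, at -0.14 to 0.10.

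In the control alone, 1653 genes were called that were not called in rEC, and among the largest of these on the CD8 side were genes of B cells and myeloid cells. Of the 16 B cell markers, 15 were higher in CD8 in the control and none was called in rEC. Of the 8 tested monocyte and macrophage markers the counts were 5 and 0. Of the 11 listed, 5 in control CD4, 4 in rEC CD4 and 6 in rEC CD8 were under 1 FPKM in every library. In control CD8 the number was 0. Levels this low left little room for a call in rEC. Over all genes, 9.66% were higher in CD8 in the control and 10.8% were called in rEC. Lyz2, the lysozyme gene of myeloid cells, measured 121, 638 and 64.3 FPKM in control CD8 and 0.371 to 17.3 FPKM in the other 7 T cell libraries. Fcer1g and Tyrobp, which encode signalling adaptors of NK and myeloid cells, measured 26.4 to 106 FPKM and 17.7 to 153 FPKM in control CD8 and at most 6.28 FPKM and 10.6 FPKM in the others.

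The control log2 differences were -5.45 ± 1.06 for Lyz2, -5.18 ± 0.60 for Fcer1g and -4.50 ± 0.94 for Tyrobp (SE; adjusted p = 0.00602, 0.000431 and 0.00835, limma). Without control CD4 replicate 1, Lyz2 and Tyrobp were not called (adjusted p = 0.0591 and 0.0932). In rEC the same 3 genes were at 1.604, -0.26 and -0.35 and were not called. Genes rich in B or myeloid cells were defined, after the data had been seen, as those with a control B cell or myeloid mean of at least 10 FPKM and at least 8 times the higher rEC T cell mean. They made up 4.52% of all genes tested, 19.6% of the 1120 genes higher in control CD8 and 1.17% of the 1452 genes higher in control CD4. Among the 235 genes called in the control alone with CD8 higher by at least 1, they were 181 (77.0%). Among the 408 genes higher in CD8 in each origin they were 12 (2.94%). Their definition uses the rEC T cell level, so the low rEC levels of these genes were fixed by it. Without them, 2357 genes were called in the control, 1267 in rEC and 915 in each origin. The part of other blood cells in the control comparison was not tested beyond these values.

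Of the other cell markers, 3 of 4 tested neutrophil markers were higher in control CD8 and none was called in rEC. Of the 10 listed, 8 in control CD4, 9 in rEC CD4 and 8 in rEC CD8 were under 1 FPKM in every library. In control CD8 the number was 3, so few of these markers could have been called in rEC. The 10 summed to only 16.4 to 35.2 FPKM in control CD8. Of 4 tested dendritic cell markers, Itgax (CD11c, at -3.16) and Ccr9 were higher in CD8 in each origin. Of 5 tested platelet markers, Itgb3, the integrin beta 3 gene, was higher in CD4 by 1.998 in the comparison of both origins and was called in each, with 37.1 to 46.1 FPKM in the CD4 and 7.07 to 15.5 FPKM in the CD8 libraries. Of 4 tested erythroid markers, Hba-a1, a globin gene, and Alas2, a haem enzyme gene, were higher in CD4 with both origins, at 1.59 and 1.04, and in neither origin alone. The Hba-a1 call ended with the titles as a block (adjusted p = 0.0592). The Alas2 call ended without any of 8 single libraries, with adjusted p from 0.0554 to 0.135. Of all genes, 9.66% were higher in control CD8 and 10.8% were called in rEC. In each origin, 3.52% were higher in CD8 and 4.36% in CD4, and with both origins 13.5% were higher in CD4. With 4 or 5 tested members in each of these lists, the counts say little beyond the single genes.

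**Figure D4:**
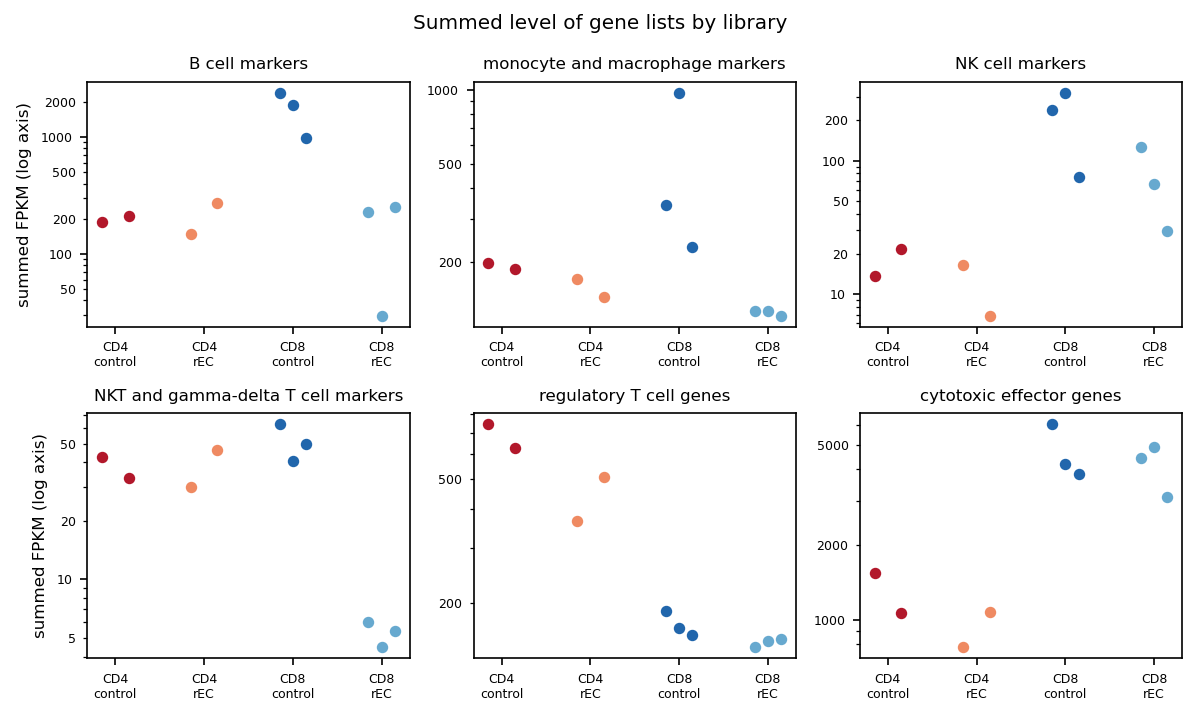
Summed FPKM (log axis) of 4 marker lists and 2 T cell lists in each library of control CD4, rEC CD4, control CD8 and rEC CD8 T cells; each point is 1 library. The 3 control CD8 libraries hold the highest B cell and monocyte sums (979.8 to 2396 FPKM and 231 to 975 FPKM), whereas the NKT and gamma-delta sum is lowest in rEC CD8 (4.47 to 6.01 FPKM). That list holds the helper cell factor Maf, at 18.1 to 37.7 FPKM in CD4 and 1.29 to 2.39 FPKM in CD8 libraries. Its sum thus does not rank CD4 and CD8 groups by NKT or gamma-delta cells.

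In rEC alone, 332 genes were called that were not called in the control, and 292 of them had the same sign there. Ccr6 and Lgmn, which the rule picked in rEC and which were called in the control too, were low in rEC CD8 cells and intermediate in control CD8 cells. Ccr6, a chemokine receptor of interleukin 17-producing and B cells, measured 10.97 and 9.25 FPKM in control CD4, 9.32 and 12.6 FPKM in rEC CD4, 5.79, 5.30 and 3.96 FPKM in control CD8 and 0.493, 0 and 0.608 FPKM in rEC CD8. Lgmn, a lysosomal protease gene, measured 24.8 and 21.7 FPKM in control CD4, 15.1 and 13.6 FPKM in rEC CD4, 7.41, 10.0 and 3.88 FPKM in control CD8 and 0.565, 0.0546 and 0.641 FPKM in rEC CD8. The CD4 levels of the 2 origins were close for Ccr6, and the 3 rEC CD8 libraries lay below the 3 control CD8 libraries for both genes.

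The CD4 minus CD8 difference was 0.89 in the control and 3.15 in rEC for Ccr6, and 1.66 and 3.46 for Lgmn. The differences between origins of 2.25 ± 0.33 and 1.80 ± 0.43 (SE) were not called (adjusted p = 0.0857 and 0.167, limma). Tmem176a was called in rEC (2.89) and not in the control (0.57), and its difference between origins was not called either (adjusted p = 0.118). These genes stand beside the control CD8 marker levels given above, and the 9 NKT and gamma-delta T cell markers summed to 40.6 to 62.9 FPKM in control CD8 and 4.47 to 6.01 FPKM in rEC CD8, with Sox13, Il23r and Il17a at 0 in rEC CD8. The 9 include Blk, also a B cell marker here, and summed to 245 to 289 FPKM in the control B cell libraries.

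The test of the difference between origins called 1 gene of 11594 (0.00863%), while 1482 genes had an unadjusted p under 0.05. That gene was 5830411N06Rik, a gene model on chromosome 7 (140247284 to 140300736) that is included in the gamma-delta T cell marker list. It measured 0.693 and 0.831 FPKM in control CD4, 6.18 and 2.37 FPKM in rEC CD4, 19.1, 9.41 and 15.7 FPKM in control CD8 and 0.551, 1.17 and 0.115 FPKM in rEC CD8. It was thus higher in CD8 in the control (-3.11) and higher in CD4 in rEC (1.66), with a difference of 4.77 ± 0.53 (SE; adjusted p = 0.0459, limma). The adjusted p rose above the threshold when single libraries were left out, namely control CD4 replicate 1 (0.189), control CD4 replicate 2 (0.0614), rEC CD4 replicate 1 (0.212), control CD8 replicate 1 (0.142) and rEC CD8 replicate 1 (0.123). Cd163l1, a scavenger receptor gene of gamma-delta T cells, measured 16.01, 11.4 and 11.3 FPKM in control CD8 and at most 1.89 FPKM in the other 7 libraries, and its difference between origins of 3.18 ± 0.49 was not called (adjusted p = 0.0857).

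Besides 5830411N06Rik, 5 genes were called in the 2 origins with opposite signs: 5730408K05Rik, Ccdc107, Dancr, Izumo4 and Snhg7, named here after their values were seen. Each was higher in CD4 in the control, by 0.37 to 0.92, and higher in CD8 in rEC, at -0.33 to -0.84. Their differences between origins were not called (adjusted p = 0.0857 for the first 4 and 0.118 for Snhg7). Of genes with an unadjusted p under 0.05, 586 had an rEC difference above the control difference. Of these 586, 229 (39.1%) were rich in B or myeloid cells, against 2 of the 896 in the other direction (0.223%). The definition of rich genes uses the rEC T cell level and so limits their rEC differences. Part of this asymmetry was thus fixed by it.

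Over all genes, the origins were closer to each other than the lineages were. The mean distance between libraries, 1 minus the correlation of log2(FPKM + 1), was 0.0677 between control CD4 and control CD8 and 0.0504 between rEC CD4 and rEC CD8. Between origins it was 0.0286 for CD4 and 0.0407 for CD8, and within groups it ran from 0.0131 to 0.0282. These distances are descriptions of 10 libraries.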

How the data were processed

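Poly-A selected, non-stranded libraries were sequenced as paired 51 bp reads on an Illumina sequencer, per the labels' protocols. Cufflinks 2.2.1, TopHat2 2.1.0, Trimmomatic 0.36, FastQC 0.11.5, bcl2fastq 2.17 and the build mm10 are listed, per the submitters' processing notes; roles and settings are not given in the sources used here. The deposited table holds FPKM per gene made by the authors, with no counts, so depth and counting error are unknown beyond relative steps. Without strand, reads of overlapping antisense genes cannot be told apart.

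From FPKM, log2(FPKM + 1) was fitted with limma 3.58.1 in R 4.3.3 with an intensity trend, over the 10 T cell libraries. A gene entered the test if 2 or more libraries reached 1 FPKM (11594 of 23060 did), with two-sided p-values adjusted by Benjamini-Hochberg over all of them and called under 0.05. The comparison of both origins had origin as block (7 residual degrees of freedom); the control, rEC and difference contrasts came from 4 group means (6). All log2 differences are CD4 minus CD8 on the log2(FPKM + 1) scale, which understates changes of low genes. Named genes were up to 12 in each direction with the largest difference among those called, without overlap in either origin and averaging 5 FPKM or more in the higher lineage, up to 5 in each direction within each origin, called differences between origins, and up to 4 called members of each list, besides fixed lineage genes. The members and lists were chosen with earlier results of these data known. Coordinates are from GENCODE vM21 (GRCm38), which held 95 of 97 named genes. The fit was tested on simulated data. No 2 libraries held identical values. Alternatives tried were other pseudocounts, filters, normalisation, models and left-out libraries. Values of some list members are not reported here, though list counts include them.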

Additional observations from a re-analysis of the deposited data

Results flagged for a closer look

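The gene 5830411N06Rik differed between the origins in the CD4 minus CD8 contrast by a test of that difference, 4.77 on the log2 scale (adjusted p = 0.0459, limma), with -3.11 in the control and 1.66 in rEC. Its call ended under 11 of the alternatives run, where the adjusted p was between 0.0555 and 0.212. The groups hold 2 or 3 libraries, so no group was examined for a single library far from the others.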

How the results depend on the processing

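In a fit over all 29 grouped libraries of the table, 947 genes were called with both origins, 527 in the control, 281 in rEC, 200 in each origin with the same sign and 3 for the difference between origins. Leaving out 1 library at a time gave 2200 to 2916 calls with both origins, 1013 to 2745 in the control, 581 to 1289 in rEC, 477 to 878 in each origin and 0 to 57 for the difference between origins; the 57 came without control CD8 replicate 3, and 16 without rEC CD8 replicate 3. The rEC count was 632 when each origin was modelled alone, an alternative chosen after seeing the data. For the difference between origins, the count was 0 with a pseudocount of 0.1, a filter of 5 FPKM, quantile normalisation, no intensity trend or array quality weights, and 3 with a pseudocount of 5 or no filter. Cd3d turned to 0.00708 under quantile normalisation. Without single libraries Cd3e ran from -0.037 to 0.098, and it was -0.037, -0.028, -0.00299 and -0.023 without control CD4 replicate 1, control CD4 replicate 2, control CD8 replicate 1 and control CD8 replicate 2; none was called. The cause was not tested. Over 102 single-gene results, 1963 values under the alternatives kept direction and side of the threshold, 82 kept direction and lost the call, and 1 gained it (Cd3g, 0.26, without rEC CD4 replicate 1). With a replicate block (the title number in the control, the title word Secondary in rEC) the counts were 2393, 3338 and 689 with both origins, in the control and in rEC. The titles do not say that libraries of a block share an animal. The deviations of CD4 and CD8 libraries in the same block correlated at 0.124 and 0.143 in the control and at 0.315, 0.0393 and 0.321 in rEC. With 2 CD4 libraries per origin, their deviations mirror each other, so each value recurs with the opposite sign for the other CD4 library. Control CD8 replicate 3, with no CD4 library in its block, was at 0.023 and -0.023. These values cannot decide whether blocks share an animal. FPKM without read totals gives no counting error, and 2 to 3 libraries per group limit the precision.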
